A study of Mus musculus with 16 samples.

Results

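The effect of voluntary running that mice with and without p16Ink4a share was measured in the dentate gyrus, with the 8 running and the 8 sedentary libraries of the series (16 of 16) compared in a single fit that held genotype as a covariate. A gene was called shared when the adjusted p of its running difference, over the 17317 genes tested, was under 0.05 and the sign was the same in both genotypes. There were 138 such genes (0.797% of those tested), 106 higher with running (0.612%) and 32 lower (0.185%). Among them were genes of activin signalling, activity-induced secreted proteins, transcription factors of the AP-1 family and T-type calcium channels, beside many genes of no common list. The AP-1 and calcium channel families were picked out after the values were seen. The calls were not stable, with 37 shared genes without the library p16 KO RUN 14. There were 0 without 3 sedentary libraries that stood apart, and 0 with the coverage of each library as a covariate.

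All animals were male C57BL/6 mice 1 year old, and the tissue was the dentate gyrus. Mice were p16Ink4a +/+ (p16 WT) or p16Ink4a -/- (p16 KO), a null allele that leaves p19Arf, the other protein of the Cdkn2a gene, functional. Sedentary mice (CTL) lived in standard cages, and running mice (RUN) had a wheel in the cage for 12 days. With 4 libraries in each of the 4 groups and the dentate gyri of 2 mice pooled in each library (8 mice per group), variation from animal to animal was not seen. The groups are named by genotype and cage, as p16 WT CTL or p16 KO RUN.

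The dentate gyrus is the entry of the hippocampus, and its granule neurons, unlike most neurons, go on being born in the adult. Access to a wheel raises the activity of these neurons, and activity in turn induces first transcription factors and then secreted proteins that act on synapses. Activin A, a dimer of inhibin βA chains, is one of those proteins: it binds type II and type I receptors, which phosphorylate SMAD proteins, and follistatin binds and neutralises it outside the cell.

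Levels are in TPM, the share of each gene among all transcripts after correction for its length, so that levels of different genes can be set side by side. Differences are on the log2(TPM + 0.1) scale after each library was scaled to the median gene, with standard errors (SE) and adjusted p-values from limma over the 17317 genes. The running label was also permuted within genotype for each named gene (an exact two-sided test over 4900 splits), and the smallest p it can give is 0.000408. Named genes other than Cdkn2a were chosen among those called, so this test is no further support for them. In tissue RNA, fewer cells of a type and less RNA per cell cannot be told apart.

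Certain libraries stood apart. The sedentary libraries p16 WT CTL 2, p16 KO CTL 6 and p16 KO CTL 7 had scores of -0.480, -1.35 and -1.52 on a mean z-score of 13 nuclear long noncoding RNAs, against -0.009 to 0.568 in the other 13 libraries. They also had the highest values, 22.5, 46.4 and 58.1, on the first principal component, which held 31.2% of the variance and was at most 4.1 elsewhere. Coverage, as the median over genes of each library's value against the mean library, was 0.621 to 0.893 in the running libraries and 0.9 to 1.95 in the sedentary ones, so that depth and running moved together. Cdkn2a was at 0 to 0.586 TPM in the sedentary and at 0 to 0.475 TPM in the running libraries of both genotypes, with a running difference of 0.03 ± 0.54 (SE, adjusted p = 0.982). Since the p16 KO allele keeps p19Arf, this level does not check the genotype labels.

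The shared effect was a moderate one. The median running difference of the 106 higher genes was 0.44 over both genotypes, with 0.37 in p16 WT and 0.50 in p16 KO, and single genes ranged from 0.16 to 3.22, with 19 at 1 or more. The median of the 32 lower genes was -0.29, with -0.25 in p16 WT and -0.32 in p16 KO. For comparison, the median over all genes tested was 0.01. The difference was the larger in p16 KO for 83 of the 106 higher genes and for 21 of the 32 lower ones.

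The genotypes were also compared by themselves, and these comparisons share no library. At an unadjusted p under 0.05, 833 genes (4.81%) changed in p16 WT and 3196 (18.5%) in p16 KO. In p16 WT 465 of them were higher (2.69%) and 368 lower (2.13%), and in p16 KO 1856 were higher (10.7%) and 1340 lower (7.74%). Without the 3 libraries that stand apart the counts were 1018 in p16 WT and 1470 in p16 KO. With coverage as a covariate they were 1169 and 1295. After adjustment 0 genes passed in p16 WT and 3 in p16 KO in limma. The 3 became 0 to 178 when 1 library was left out, and the 0 became 2 without p16 WT CTL 2, 3 or 4. Of the 138 shared genes, 125 had an unadjusted p under 0.05 in p16 WT alone, 136 in p16 KO alone and 123 in each. These counts, and the like sign in both genotypes, are descriptions only, since the genes were chosen for their mean difference over the same libraries. Without that choice, 61.5% of all genes tested had the same sign in both genotypes. Among the genes at an unadjusted p under 0.05 in p16 KO, 75.6% had that sign in p16 WT, and among those of p16 WT, 77.8% had it in p16 KO. In 275 genes both genotypes passed and moved the same way (33% of the p16 WT genes and 8.6% of the p16 KO genes), 176 of them up and 99 down, against 21 that moved in opposite ways.

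A difference in the size of the effect between the genotypes was tested as the interaction of genotype and running. It passed the unadjusted threshold in 949 genes (5.48%) and the adjusted one in 0 in limma, with 0.738 the smallest adjusted p. When 1 library was left out the 949 became 619 to 2381, and the 0 became 1 without p16 WT CTL 4. Of the shared genes, 8 of 138 had an unadjusted interaction p under 0.05, a share near that of all genes. The absence of a passing interaction does not show that the effects were equal.

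**Figure D1:**
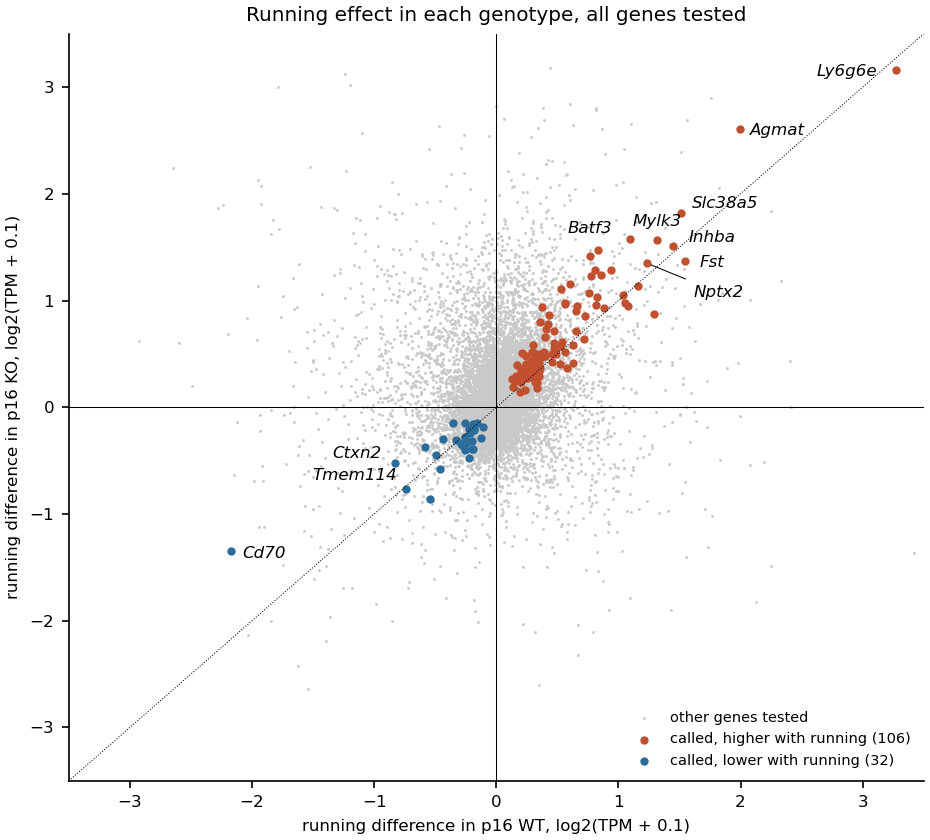
Running difference in p16 WT (x axis) against that in p16 KO (y axis), both in log2(TPM + 0.1), for the genes tested, with 7 that lie beyond the axes not drawn. The 106 shared higher genes (orange) and 32 shared lower genes (blue) lie in the quadrants of like sign, and Ly6g6e, Agmat, Slc38a5, Inhba and Fst lie high along the dotted line of equal effects.

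The separation of the libraries was complete for a part of these genes. They were chosen for their running difference over the same libraries, so the counts follow in part from that choice. These counts are descriptions and no further support. On the scaled values, all 8 running libraries lay above all 8 sedentary ones in 40 of the 106 higher genes, against 54 genes (0.312%) of all tested. In 10 of the 32 lower genes they lay below all sedentary ones, against 24 genes (0.139%) of all tested. Within each genotype taken by itself, running lay above sedentary in 54 of the higher genes, against 83 (0.479%) of all, and below it in 16 of the lower genes, against 45 (0.26%) of all.

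The calls depended on the libraries used. The direction of the 138 genes was kept in each fit run, but they were chosen for that difference over the same libraries. A kept direction, or a kept unadjusted p under 0.05, is therefore no further support for them. Leaving out 1 library changed the count of shared genes to between 37, without p16 KO RUN 14, and 244, without p16 WT CTL 3, and 36 of the 138 genes were called in all 16 such fits. Without the 3 sedentary libraries that stand apart, 0 genes passed the adjusted threshold in limma, with 1511 at an unadjusted p under 0.05 and 0.0598 as the smallest adjusted p. In that fit of 13 libraries all 138 genes kept their direction and had an unadjusted p of at most 0.00612, and the differences stood at 0.908 times their former size in the median (0.604 to 1.19). With the coverage of each library as a covariate 0 genes passed likewise (943 at an unadjusted p under 0.05), and all 138 again kept their direction at an unadjusted p under 0.05. Since every running library had a lower coverage than every sedentary one, coverage and running cannot be told apart here.

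**Figure D2:**
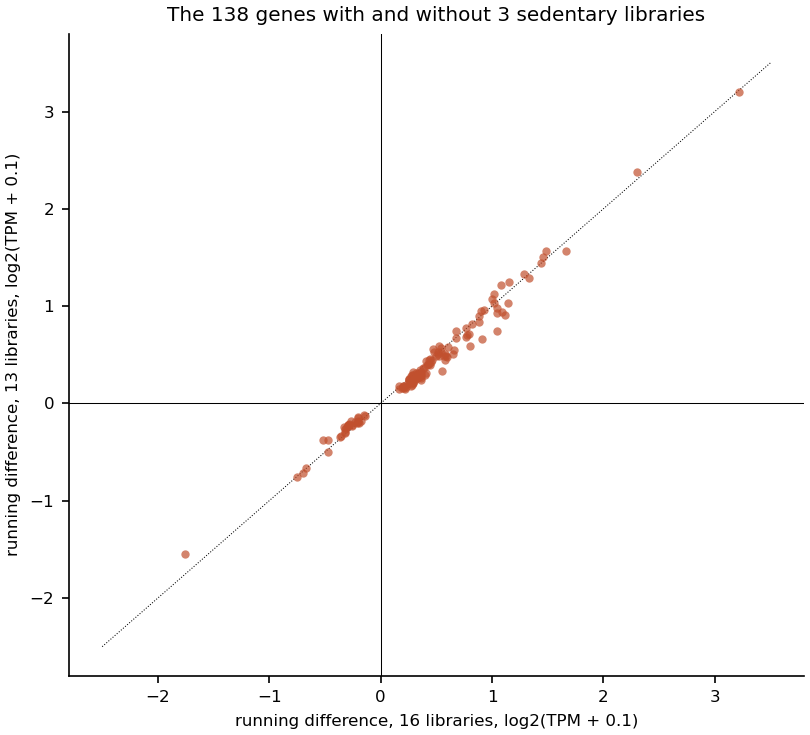
Running difference of each of the 138 shared genes in log2(TPM + 0.1), with 16 libraries (x axis) and with the 13 that remain without p16 WT CTL 2, p16 KO CTL 6 and p16 KO CTL 7 (y axis). The points follow the dotted line of equality, with 104 of 138 somewhat smaller in size among 13 libraries.

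Inhba (mm10, chr13:16014475-16027211, plus strand), which encodes the βA chain of activin A, was among the 3 genes of smallest p, after Tmem114 and Nptx2. It was at 4.72, 5.26, 4.65 and 7.40 TPM in p16 WT CTL and at 9.27, 25.3, 10.2 and 21.6 TPM in p16 WT RUN. In p16 KO CTL it was at 5.81, 6.79, 6.74 and 5.36 TPM, and in p16 KO RUN at 16.4, 24.1, 15.5 and 19.3 TPM. The lowest running library thus lay above the highest sedentary one, and among p16 WT RUN libraries 2 stood well above the other 2. Inhba rose 2.79-fold, with a log2 difference of 1.48 ± 0.20 (SE, adjusted p = 0.00476, exact permutation p = 0.000408), and by 1.45 in p16 WT and 1.51 in p16 KO.

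Fst (chr13:114452262-114458951, minus strand), which encodes the activin-binding protein follistatin, rose with it. It lay between 0.775 and 4.78 TPM (median 3.46) in the sedentary libraries and between 3.72 and 12.2 TPM (median 8.29) in the running ones, a log2 difference of 1.46 ± 0.30 (SE, adjusted p = 0.0356). The groups overlapped at their edges, and p16 WT CTL 1 was the lowest.

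The receptor genes Acvr1c and Acvr1 were called with smaller differences, whereas Acvr1b, Acvr2a and Acvr2b were not called. Acvr1c encodes ALK7, a type I receptor for nodal and some activins, and Acvr1 encodes ALK2, a type I receptor mostly of BMPs. Whether either receptor carries activin A signals here was not tested. Acvr1c and Acvr1 are neighbours on the minus strand of chromosome 2, at chr2:58267453-58357758 and chr2:58446438-58566828. Acvr1c was at 13.0 to 18.4 TPM (median 15.6) in sedentary and 22.8 to 38.3 TPM (median 29.6) in running libraries, with no overlap, and rose by 0.89 ± 0.12 (SE, adjusted p = 0.00476). Acvr1 was at 40.4 to 49.3 TPM (median 42.7) against 49.8 to 64.6 TPM (median 56.3), again without overlap, and rose by 0.32 ± 0.06 (SE, adjusted p = 0.0161). A transcript of unknown function on the opposite strand, Gm13544, overlaps Acvr1c, and although the libraries were stranded per the labels, whether the counting used strand is not given in the sources used here.

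On the SMAD side, Pmepa1 and Skil were called, both chosen for naming after their values were seen. They encode inhibitors of SMAD signalling that the pathway itself induces. Pmepa1 was at 10.9 to 16.1 TPM (median 14.1) in sedentary libraries and at 17.7 to 44.2 TPM (median 29.8) in running ones, a rise of 1.01 ± 0.17 (SE, adjusted p = 0.0145). Skil was at 27.3 to 41.8 TPM (median 34.7) against 45.5 to 69.6 TPM (median 49.1), a rise of 0.60 ± 0.10 (SE, adjusted p = 0.0145). Neither overlapped between running and sedentary libraries. The p16 WT RUN libraries 10 and 12, highest for Inhba among their group, were also its highest for Fst, Acvr1c, Pmepa1, Skil and Nptx2.

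The list of TGF-beta, activin and BMP genes was chosen with earlier results of these data known, so its counts are descriptions. It had 35 members tested, of which 4 rose, 1 fell and 30 did not pass (0.612% of all genes were called higher and 0.185% lower). The median was 0.07 against 0.01 over all genes (0.04 without p16 WT RUN 10 or without p16 WT RUN 12). The member that fell was Tgfb2, a TGF-beta ligand named after its values were seen. It stood at 48.5 to 60 TPM (median 54.3) in sedentary and at 42.0 to 52.2 TPM (median 46.5) in running libraries, with overlap, and changed by -0.26 ± 0.06 (SE, adjusted p = 0.0429). Among those that did not pass, the other activin chains Inhbb and Inha had differences of -0.42 and 0.27 (adjusted p = 0.107 and 0.512). The activin type II receptors Acvr2a and Acvr2b had 0.22 and -0.08 (adjusted p = 0.314 and 0.757), the type I receptor Acvr1b had 0.04 (adjusted p = 0.642), and the inhibitory SMAD gene Smad7 had 0.29 (adjusted p = 0.209).

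Fst and Tgfb2 were called in 6 and 4 of the 16 fits that left out 1 library, with adjusted p up to 0.0863, without p16 WT RUN 10, and up to 0.1, without p16 KO RUN 14. Inhba, Acvr1c, Acvr1, Pmepa1 and Skil were called in all 16. Without the 3 libraries that stand apart Inhba had a difference of 1.56 and an adjusted p of 0.0598, and Fst kept its direction with an adjusted p of 0.206.

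**Figure D3:**
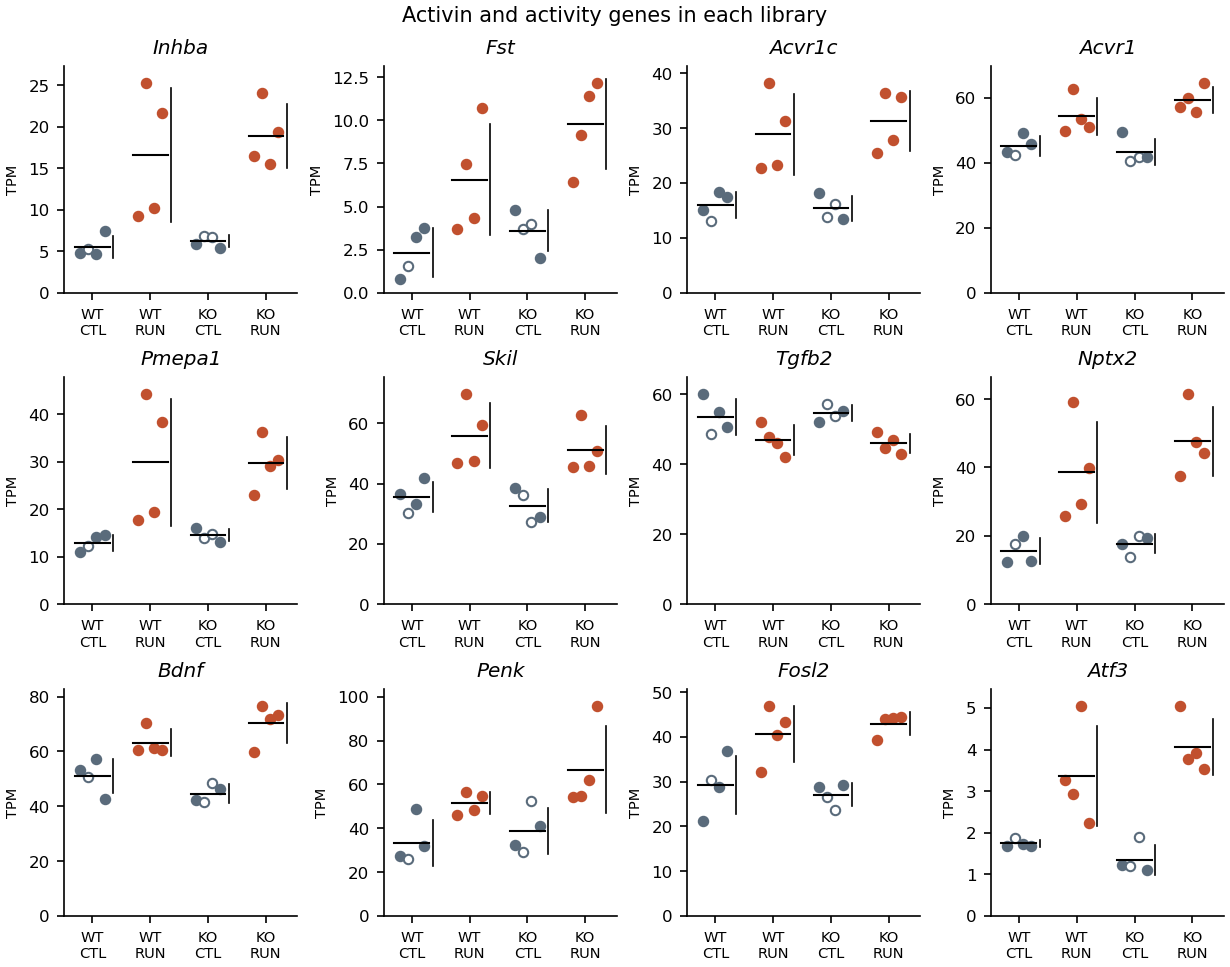
Levels in TPM (y axis, from 0) of 12 genes in the 16 libraries, by group, with sedentary libraries in grey, running ones in orange, and the 3 libraries that stand apart as open circles. Horizontal bars are group means and vertical bars the SD (n = 4), and in Inhba, Acvr1c, Pmepa1, Skil, Nptx2, Bdnf and Atf3 each running library lies above each sedentary one.

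Other shared genes are known to follow neuronal activity. Nptx2 (chr5:144545887-144557478, plus strand) encodes neuronal pentraxin 2, a secreted protein that gathers AMPA receptors at excitatory synapses. It was at 12.4, 17.7, 20.1 and 12.6 TPM in p16 WT CTL and at 25.9, 59.0, 29.4 and 39.9 TPM in p16 WT RUN. The p16 KO CTL libraries had 17.6, 13.9, 20 and 19.3 TPM and the p16 KO RUN libraries 37.5, 61.4, 47.5 and 44.3 TPM. No running library came down to the sedentary range, and Nptx2 rose 2.45-fold, by 1.29 ± 0.17 (SE, adjusted p = 0.00476, exact permutation p = 0.000408).

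Bdnf, the neurotrophin most tied to exercise in the hippocampus, moved less and as regularly. It was at 41.4 to 57.4 TPM (median 47.5) in sedentary and at 59.9 to 76.6 TPM (median 65.8) in running libraries, without overlap, a rise of 0.44 ± 0.08 (SE, adjusted p = 0.0188). Its difference was 0.30 in p16 WT and 0.59 in p16 KO, with an interaction adjusted p of 0.797 in limma. Penk, the precursor of enkephalin opioid peptides, was at 25.9 to 52.6 TPM (median 32.2) against 46.1 to 95.8 TPM (median 54.6), with overlap, and rose by 0.68 ± 0.15 (SE, adjusted p = 0.0473). Oprd1, the delta opioid receptor that enkephalins bind, was named after its values were seen, and it rose by 0.43 ± 0.08 (SE, adjusted p = 0.0176) from a median of 7.36 to one of 10.3 TPM.

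The list of activity-induced effectors was chosen with earlier results of these data known, so its counts are descriptions. Of the 24 tested, 4 rose (Inhba, Nptx2, Bdnf and Penk), 0 fell and 18 had a positive difference, against 0.612% called higher and 53.3% positive over all genes. The median was 0.21, which without the 3 libraries that stand apart was 0.22. Members that did not pass included Vgf, 0.44 (adjusted p = 0.211), Ptgs2, 0.54 (adjusted p = 0.136), Scg2, 0.17 (adjusted p = 0.254), and Nptx1, -0.04 (adjusted p = 0.621). Penk was called in 3 of the 16 fits that left out 1 library, with an adjusted p up to 0.103 without p16 WT CTL 2. Bdnf was called in 15 of them, with 0.0504 without p16 KO RUN 14, and Nptx2 in all.

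Immediate early genes are switched on by neurons within minutes of activity. Of 22 tested, 1 rose (Fosl2), 0 fell and 21 did not pass, and the median was -0.05, with -0.16 in p16 WT and 0.13 in p16 KO. The median over both genotypes lay above 0, at up to 0.06, without either of the libraries p16 KO RUN 16 and p16 WT RUN 12 or of the sedentary libraries p16 WT CTL 2 and p16 KO CTL 8, and at 0.01 with coverage as a covariate. Fos itself had a difference of -0.28 (adjusted p = 0.705), with -0.79 in p16 WT and 0.23 in p16 KO (interaction adjusted p = 0.797). The difference was 0.21 for Arc (adjusted p = 0.755), 0.21 for Npas4 (adjusted p = 0.818) and 0.02 for Egr1 (adjusted p = 0.966). Fosl2, a slower member of the Fos family, was at 21.2 to 36.9 TPM (median 28.8) in sedentary and 32.2 to 46.9 TPM (median 43.5) in running libraries, with overlap, and rose by 0.54 ± 0.10 (SE, adjusted p = 0.0176).

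Fosl2 is part of AP-1, a family of dimeric transcription factors, and further members of it were among the genes that rose. Atf3, a stress- and activity-induced repressor of that family, was at 1.10 to 1.89 TPM (median 1.69) in sedentary and at 2.23 to 5.05 TPM (median 3.65) in running libraries. The groups did not overlap, and Atf3 rose by 1.16 ± 0.17 (SE, adjusted p = 0.00858), by 0.84 in p16 WT and 1.48 in p16 KO (interaction adjusted p = 0.797). Batf3, named after its values were seen, was at 1.28 to 3.43 TPM (median 1.78) against 2.38 to 9.57 TPM (median 6.64), with overlap, and rose by 1.34 ± 0.25 (SE, adjusted p = 0.0193). A list of AP-1 genes drawn up after these values were seen had 11 members tested, of which Fosl2, Atf3 and Batf3 rose, 0 fell and 8 did not pass, against 0.612% of all genes called higher. Its median was -0.03 with 5 of 11 positive, and those that did not pass included Jun at -0.11 (adjusted p = 0.662) and Junb at -0.13 (adjusted p = 0.668).

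The letters that AP-1 binds, TGACTCA or its reverse complement TGAGTCA, were then looked for on both strands of the 250 bases before the RefSeq start sites. A window was at hand for 81 of the 106 higher and 24 of the 32 lower genes, and for 12446 of all genes tested. They were found in 7 of the 81 higher genes (8.64%) and 2 of the 24 lower ones (8.33%), against 3.98% of all genes. Higher genes had more start sites searched (134 windows for 81 genes, against 15747 for 12446), and per window the shares were 5.22% for the higher genes, 6.25% for the lower ones and 3.28% for all. The 9 shared genes with the letters are shown, the 7 higher ones first, each as 60 bases of that window from RefSeq (GRCm38.p6), with the motif in capitals. Kcnip3 is at chr2:127522183-127522242 (minus strand), Dclk1 at chr3:55461643-55461702 (plus), Trim2 at chr3:84220921-84220980 (minus), Rnh1 at chr7:141168832-141168891 (minus), Klhl40 at chr9:121777537-121777596 (plus), Phospho1 at chr11:95824250-95824309 (plus) and Prlr at chr15:10293591-10293650 (plus). The lower genes are Galnt16, at chr12:80518615-80518674 (plus), and H2-DMa, at chr17:34125406-34125465 (plus).
Kcnip3: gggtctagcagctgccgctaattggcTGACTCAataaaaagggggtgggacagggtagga
Dclk1: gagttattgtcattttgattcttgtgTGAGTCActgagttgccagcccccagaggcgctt
Trim2: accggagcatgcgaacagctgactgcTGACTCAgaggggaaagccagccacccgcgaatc
Rnh1: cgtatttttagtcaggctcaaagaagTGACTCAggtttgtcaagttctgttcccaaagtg
Klhl40: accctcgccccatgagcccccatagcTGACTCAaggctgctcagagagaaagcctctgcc
Phospho1: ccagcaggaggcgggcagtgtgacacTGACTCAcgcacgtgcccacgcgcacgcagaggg
Prlr: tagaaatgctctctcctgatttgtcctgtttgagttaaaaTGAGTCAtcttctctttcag
Galnt16: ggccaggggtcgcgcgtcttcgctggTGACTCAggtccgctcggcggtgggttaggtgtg
H2-DMa: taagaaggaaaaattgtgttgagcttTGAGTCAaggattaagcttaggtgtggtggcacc

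Of these genes, the higher ones rose by 0.41 for Kcnip3, a calcium sensor that binds potassium channels, 0.35 for the neuronal microtubule kinase Dclk1, 0.32 for the ubiquitin ligase Trim2 and 0.28 for the ribonuclease inhibitor Rnh1. The rise was 0.93 for Klhl40, 0.48 for the phosphatase gene Phospho1 and 1.02 for the prolactin receptor Prlr. The lower ones changed by -0.21 for Galnt16, a glycosyltransferase gene, and -0.25 for H2-DMa, a chaperone of peptide loading on MHC class II. A match of letters is a description and not a bound site. The cAMP response element TGACGTCA was present in 1 of the 81 higher genes (Arhgef7) and 1 of the 24 lower ones (Snapc5), against 2.84% of all genes. It stands 21 bases before the start site in Snapc5, a subunit of the complex that drives small nuclear RNA genes, whose level changed by -0.29, and this window at chr9:64179237-64179296 (plus strand) is shown because it belongs to the only lower gene with these letters.
Snapc5: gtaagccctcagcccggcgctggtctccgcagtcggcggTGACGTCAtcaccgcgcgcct

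The SMAD palindrome GTCTAGAC was found in 0 of the 81 and 0 of the 24, against 0.217% of all genes, and the E-box CACGTG in 11 of 81 (13.6%) and 1 of 24 (4.17%), against 9.27%. Per window the E-box shares were 8.96%, 3.12% and 7.74%.

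Some genes of ion channels and inhibitory receptors were called too, and except for Grm2 they were named after their values were seen. Most members of such families were not called, with 0 of 20 voltage-gated potassium channels and 0 of 15 GABA receptor subunits in limma (4 and 3 at an unadjusted p under 0.05). Cacna1h and Cacna1g encode the pore subunits of T-type calcium channels, which open near the resting potential. Cacna1h was at 43.2 to 103 TPM (median 62.5) in sedentary and 101 to 139 TPM (median 117) in running libraries, and rose by 0.80 ± 0.15 (SE, adjusted p = 0.0193). Cacna1g was at 8.33 to 19.2 TPM (median 13.9) against 15.0 to 37.1 TPM (median 26.4), and rose by 0.91 ± 0.19 (SE, adjusted p = 0.0393). In both the groups overlapped, and the lowest values came from libraries that stand apart, p16 WT CTL 2 for Cacna1h and p16 KO CTL 7 for Cacna1g. Without the 3 such libraries the differences were 0.59 and 0.66 (adjusted p = 0.168 and 0.326), and Cacna1g was called in 6 of the 16 fits that left out 1 library. The third T-type gene, Cacna1i, had a difference of -0.0046 (adjusted p = 0.983), and of 9 calcium channel pore subunits tested, a list drawn up after the values were seen, 2 rose and 0 fell, against 0.612% of all genes called higher.

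Grm2, the presynaptic metabotropic glutamate receptor of the granule cell's mossy fibres, was at 46.0 to 135 TPM (median 82.6) in sedentary and at 124 to 169 TPM (median 147) in running libraries. It rose by 0.77 ± 0.17 (SE, adjusted p = 0.0473), was called in 4 of the 16 fits that left out 1 library and had 0.70 (adjusted p = 0.292) without the 3 libraries. It was the only one called of 22 glutamate receptor subunits, whose median was 0.10, and 0.03 without the 3 libraries. The next by p were the NMDA receptor subunit Grin2a, 0.38 (adjusted p = 0.0516), the receptor Grm7, 0.17 (adjusted p = 0.122), and the subunit Grin2b, 0.38 (adjusted p = 0.129). Kcnj6, a potassium channel opened by G proteins, rose by 0.41 ± 0.08 (SE, adjusted p = 0.0227) from a median of 74.9 to one of 98.2 TPM. Rimbp2, a scaffold that ties calcium channels to vesicle release sites, rose by 0.65 ± 0.11 (SE, adjusted p = 0.0161), by 0.43 in p16 WT and 0.87 in p16 KO (interaction adjusted p = 0.797).

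Among transporters and metabolic enzymes, Slc38a5 rose the most by p. It encodes a glutamine and neutral amino acid transporter and lies at chrX:8271381-8280176 (plus strand). It was at 2.13 to 6.17 TPM (median 3.17) in sedentary and 7.12 to 19.3 TPM (median 10.3) in running libraries, without overlap, and rose 3.18-fold, by 1.67 ± 0.23 (SE, adjusted p = 0.00638). Slc25a42, the mitochondrial carrier of coenzyme A, was at 24.7 to 39.8 TPM (median 31.7) against 42.6 to 56.1 TPM (median 49.5), also without overlap. It rose by 0.60 ± 0.09 (SE, adjusted p = 0.00858), by 0.42 in p16 WT and 0.78 in p16 KO (interaction adjusted p = 0.797).

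Agmat, an enzyme gene of the agmatinase family, went from a median of 0.213 TPM (0.0941 to 0.539) to 2.23 TPM (0.307 to 3.47), a rise of 2.30 ± 0.39 (SE, adjusted p = 0.0145). Ly6g6e, of the Ly6 family of small membrane-anchored proteins (chr17:35076942-35078804, plus strand), showed the largest rise of the called genes. It was at 0.0485 to 0.890 TPM (median 0.397) in sedentary and at 0.713 to 11.5 TPM (median 4.69) in running libraries, and rose by 3.22 ± 0.57 (SE, adjusted p = 0.0164). In both the lowest running library, p16 WT RUN 9, lay within the sedentary range. At these low levels the difference depends on the pseudocount, and with 1 TPM added it was 1.89 for Ly6g6e and 1.09 for Agmat, both still called.

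Some enzyme genes were among those that fell. Gsta4, a glutathione transferase for lipid peroxidation products, was at 83.9 to 127 TPM (median 99.1) in sedentary and 66.4 to 84.0 TPM (median 74.9) in running libraries, touching at their edges, and changed by -0.47 ± 0.09 (SE, adjusted p = 0.0316). Grhpr, the glyoxylate reductase, changed by -0.20 ± 0.04 (SE, adjusted p = 0.0319), from a median of 56.9 to one of 51.3 TPM. Aldh2, the mitochondrial aldehyde dehydrogenase, and Sord, the sorbitol dehydrogenase, were named after their values were seen and changed by -0.29 and -0.28 (adjusted p = 0.0332 and 0.0472). Of these, Gsta4 was called in 7 of the 16 fits that left out 1 library, Grhpr in 9, Aldh2 in 8 and Sord in 5.

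Inf2, a formin that nucleates and severs actin, was at 63.4 to 97.5 TPM (median 77.3) in sedentary and 102 to 186 TPM (median 132) in running libraries, and rose by 0.79 ± 0.12 (SE, adjusted p = 0.00858). Mylk3, a myosin light chain kinase known from heart muscle, was at 1.45 to 3.82 TPM (median 2.65) against 4.31 to 11.0 TPM (median 7.26), and rose by 1.44 ± 0.22 (SE, adjusted p = 0.00858). Neither overlapped between running and sedentary libraries.

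Hectd2 and March4 encode ubiquitin ligases. Hectd2 was at 14.7 to 33.0 TPM (median 20.9) in sedentary and at 30.7 to 62.0 TPM (median 49.6) in running libraries, and rose by 1.15 ± 0.15 (SE, adjusted p = 0.00476). It overlapped only in that p16 WT RUN 9 lay below p16 WT CTL 4, and it shares its position with a transcript on the opposite strand, 1500017E21Rik. March4 rose by 0.52 ± 0.08 (SE, adjusted p = 0.0112), Trib2, a pseudokinase that directs proteins to degradation, by 0.91 ± 0.14 (adjusted p = 0.00858), and Dnajb5, a co-chaperone of heat shock protein 70, by 0.36 ± 0.06 (adjusted p = 0.0098).

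Tmem114, Stmn1 and Psme1 were among the genes that fell with the smallest p, and they were called in all 16 fits that left out 1 library. Tmem114 (chr16:8409276-8425136, minus strand), a transmembrane protein gene, had the smallest p of all genes. It was at 18.1, 14.3, 15.4 and 12.7 TPM in p16 WT CTL and 10.8, 7.08, 8.84 and 9.75 TPM in p16 WT RUN. In p16 KO CTL it was at 14.6, 16.4, 13.4 and 17.9 TPM and in p16 KO RUN at 10.1, 9.52, 10.3 and 8.22 TPM. All running libraries were below all sedentary ones, and the difference was -0.75 ± 0.10 (SE, adjusted p = 0.00476), with -0.74 in p16 WT and -0.76 in p16 KO. Stmn1 (chr4:134468320-134473843, plus strand) encodes stathmin, which destabilises microtubules and is abundant in young neurons. It was at 326 to 364 TPM (median 350) against 253 to 313 TPM (median 293), without overlap, and changed by -0.31 ± 0.05 (SE, adjusted p = 0.00858). Psme1, a subunit of the proteasome activator PA28, was at 84.1 to 96.0 TPM (median 85.8) against 64.8 to 77.3 TPM (median 74.2), without overlap, and changed by -0.32 ± 0.05 (SE, adjusted p = 0.00858).

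The other named genes that fell changed by -0.32 for the protease gene Capn5 (adjusted p = 0.00858), -0.23 for the ubiquitin-conjugating enzyme Ube2e2 (adjusted p = 0.0145) and -0.19 for the Fas inhibitor Faim2 (adjusted p = 0.0176). The mitochondrial release factor Mtrf1 changed by -0.35 (adjusted p = 0.0193), the non-muscle myosin Myh14 by -0.28 (adjusted p = 0.0222) and beta-synuclein, Sncb, by -0.21 (adjusted p = 0.0269). The small GTPase Rab29 changed by -0.48 (adjusted p = 0.0349), the pro-apoptotic gene Bid by -0.37 (adjusted p = 0.0356) and cortexin 2, Ctxn2, by -0.67 (adjusted p = 0.0499). Faim2, Sncb, Rab29 and Ctxn2 were not called with TPM as deposited, nor were Faim2 and Sncb after quantile normalization. Leaving out 1 library at a time, Sncb was called in 11 of 16 fits, Rab29 and Bid in 8 each and Ctxn2 in 3. Cd70, a ligand of lymphocytes named after its value was seen, was called lower, but it is listed at 0 in 1 sedentary and 7 running libraries, was at most 0.652 TPM, and the size of its difference is set by the pseudocount.

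**Figure D4:**
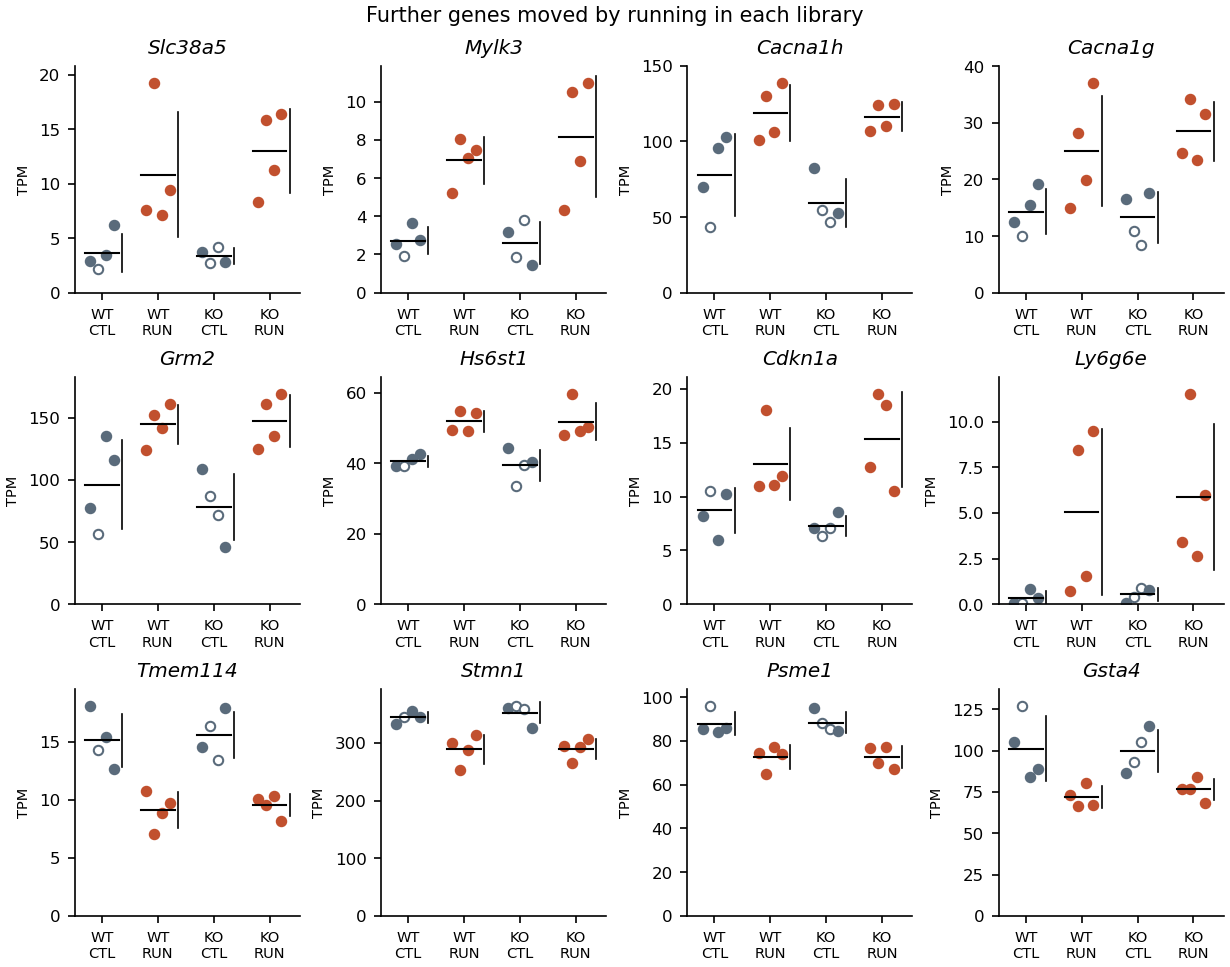
Levels in TPM (y axis, from 0) of 12 further shared genes in the 16 libraries, by group, with sedentary libraries in grey, running ones in orange, and the 3 libraries that stand apart as open circles. Horizontal bars are group means and vertical bars the SD (n = 4), and Tmem114, Stmn1 and Psme1 are lower in each running library than in each sedentary one.

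Running is best known in this tissue for the birth of neurons, and few genes of the lists for it were called. Among 18 genes of newborn neurons Neurod2, a transcription factor of neuronal differentiation that mature granule neurons keep, rose by 0.49 ± 0.09 (SE, adjusted p = 0.0176), from 174 to 232 TPM in sedentary to 239 to 362 TPM in running libraries. Stmn1 fell, and 16 did not pass, among them Dcx at -0.05 (adjusted p = 0.844), Sox11 at 0.13 (adjusted p = 0.634), Calb2 at -0.13 (adjusted p = 0.587) and Tubb2b at 0.28 (adjusted p = 0.149). Of 13 neural stem cell genes and 19 proliferation genes 0 were called by limma, with 4 and 3 at an unadjusted p under 0.05, a threshold that 3030 of all genes (17.5%) passed. A positive difference was seen in 15 of the 19 proliferation genes, 4 of the 13 stem cell genes and 11 of the 18 newborn neuron genes, against 53.3% of all genes. The proliferation genes had a median of 0.24 over both genotypes, -0.05 in p16 WT and 0.48 in p16 KO. The 0.24 became 0.16 without the 3 libraries that stand apart or after quantile normalization, and 0.15 with a pseudocount of 1. Mki67 had 0.27 in p16 WT and 1.33 in p16 KO (interaction adjusted p = 0.797, adjusted p of the shared effect 0.109). Cdkn1a, which encodes the cell cycle inhibitor p21 and is also a glucocorticoid target, was at 6.01 to 10.5 TPM (median 7.63) in sedentary and 10.5 to 19.5 TPM (median 12.3) in running libraries. It rose by 0.76 ± 0.17 (SE, adjusted p = 0.0457) and was called in 5 of the 16 fits that left out 1 library. Cdkn1a alone was called among 14 glucocorticoid response genes, against 0.612% of all genes called higher. With Cdkn1a counted, that list had 6 members higher and 2 lower by the unadjusted threshold, which 17.5% of all genes passed. Its median difference was 0.0012.

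The cell type lists describe the tissue, but sums over different genes do not measure shares of cells. The 14 interneuron genes, for example, summed to 1730 to 2670 TPM in sedentary and 1680 to 2250 TPM in running libraries. The 18 dentate granule neuron genes summed to 1370 to 3250 TPM in the sedentary and 2220 to 3390 TPM in the running libraries, with 0 called by limma, 5 at an unadjusted p under 0.05 and a median of 0.16. That median was 0.07 without p16 WT CTL 2, 0.05 without p16 KO CTL 8 and 0.01 with coverage as a covariate. The 12 choroid plexus genes summed to 63.1 to 292 TPM over all libraries. Of them 2 had a positive difference, and their median was -0.18. That median was -0.09 without p16 WT RUN 9 and -0.02 without the 3 libraries that stand apart. Only Prlr was called among them, and it rose by 1.02 ± 0.23 (SE, adjusted p = 0.0473). It was at 0.686 to 1.36 TPM against 0.963 to 2.88 TPM and was called in 3 of the 16 fits that left out 1 library. In none of the lists of mossy cells, CA1, CA2 and CA3 pyramidal neurons, interneurons, astrocytes, oligodendrocytes, ependyma, meninges, blood or thalamus was a gene called.

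In 4 lists without a called gene all members had the same sign, against 53.3% positive over all genes. At an unadjusted p under 0.05, 9.61% of all genes were higher and 7.88% lower. All 16 endothelium and pericyte genes had a positive difference (median 0.28, 4 at an unadjusted p under 0.05), with sums of 113 to 203 TPM in sedentary and 179 to 236 TPM in running libraries. All 14 microglia genes had a negative one (median -0.20, 7 at an unadjusted p under 0.05), with sums of 668 to 951 TPM against 620 to 758 TPM, and so had all 42 cytosolic ribosomal protein genes (median -0.19, 28 at an unadjusted p under 0.05) and all 30 oxidative phosphorylation subunits (median -0.09, 3 at an unadjusted p under 0.05). Of 14 astrocyte genes 2 had a positive difference and 4 were lower at an unadjusted p under 0.05 (median -0.10, or -0.06, -0.05 and -0.05 without p16 WT CTL 2, p16 KO CTL 6 and p16 KO CTL 7). The 13 nuclear long noncoding RNAs had a median of 0.39, or 0.25 without p16 KO CTL 6. Without the 3 sedentary libraries low in those RNAs these medians were 0.04 for endothelium, -0.04 for microglia, -0.06 for ribosomal proteins, 0.01 for oxidative phosphorylation, 0.06 for astrocytes and -0.05 for the nuclear RNAs. In that fit of 13 libraries the median of the activity-induced effectors was 0.22, against 0.21 with all libraries. The proliferation median was 0.16 there, against 0.24 with all libraries. No gene of any list passed the adjusted threshold in that fit. The cause of these changes was not tested.

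**Figure D5:**
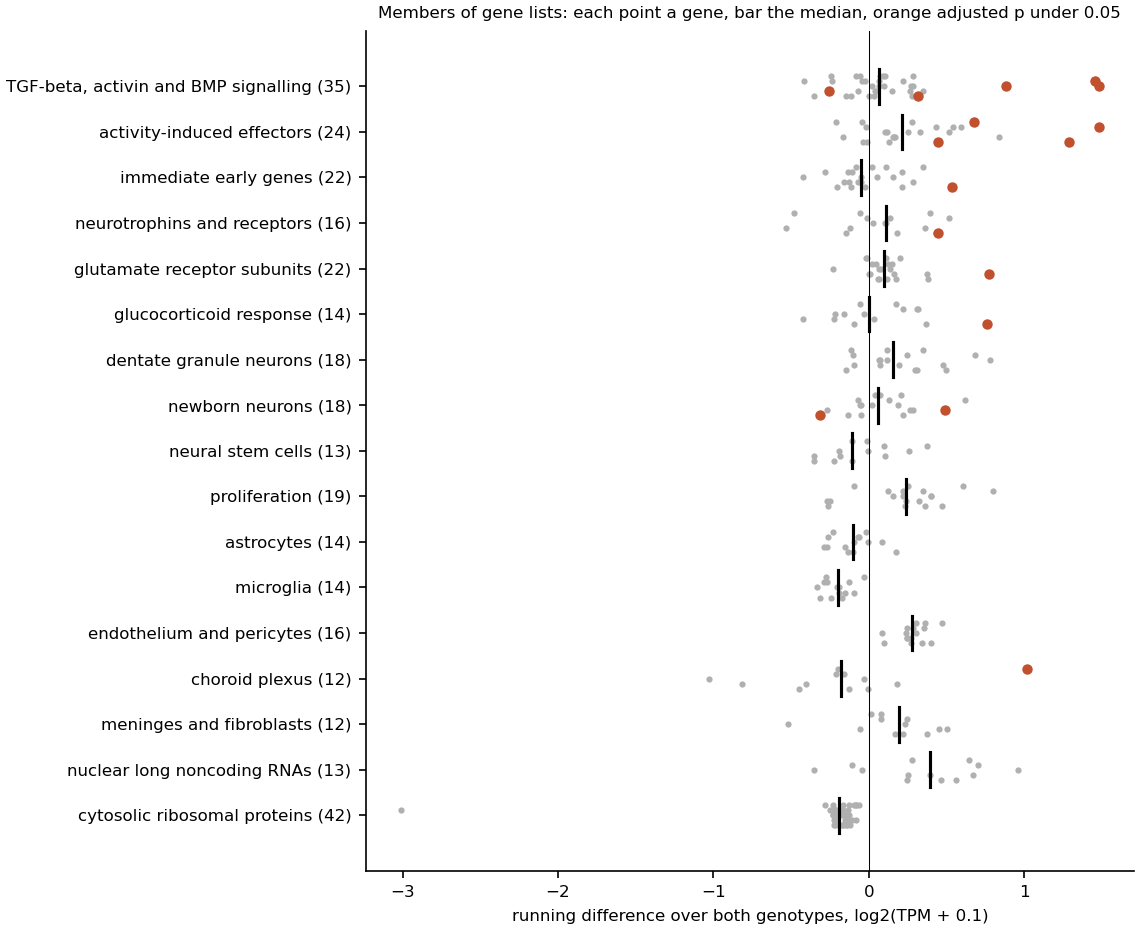
Running difference over both genotypes in log2(TPM + 0.1) (x axis) of each member of 17 gene lists, with the number of genes tested in parentheses. Each point is a gene, black bars are medians and orange points are genes with an adjusted p under 0.05, of which the activin list holds 5 and the activity-induced list 4, whereas microglia and ribosomal protein genes lie to the left and endothelial ones to the right with no called gene.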

How the data were processed

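Dentate gyrus RNA of 16 pools of 2 mice was sequenced by the authors from stranded libraries. Per the submitters' processing notes and the methods, reads were demultiplexed with bcl2fastq 2.20, adapters masked with cutadapt 1.11, and reads aligned to mm10 with STAR. The deposited TPM values, with FPKM and coverage values beside them, are the authors' StringTie abundances per gene. The FPKM values, as deposited, served as an alternative, and the deposited coverage values as the relative depth. The tables hold no read counts, so no count test was run and the counting error of single genes is unknown.

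TPM was summed per gene name (24421 names). Each library was divided by its median ratio to the mean of all libraries, taken over the 13226 genes that reached 1 TPM in every one. The genes whose mean was 0.1 TPM or more were tested with limma 3.58.1 (R 4.3.3, statmod 1.5.0) on log2(TPM + 0.1), as genotype plus running, with a variance trend and Benjamini-Hochberg adjustment. In data simulated for this comparison over 17317 genes, 59% of genes changed by 0.5 and 83% of those changed by 1 were called, with 8 unchanged genes called. The simulation drew independent noise for each gene, without genotype differences, libraries that stand apart or a difference in coverage. Its shares therefore need not hold for the real libraries. P-values measure the spread between pools, and no label names a batch.

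Named genes were the 12 of smallest p in each direction with a mean of at least 1 TPM, the 5 of largest change in each direction, up to 4 called per list, and Cdkn2a. All other genes given by name were chosen after their values were seen. The 39 lists, the members and the rules were chosen with earlier results of these data known. A list of 13 mitochondrially encoded mRNAs had 0 genes in the tables. Overlap between libraries is described on TPM as deposited for single genes and on scaled values for counts. Sequences come from RefSeq tables of GRCm38.p6.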

Additional observations from a re-analysis of the deposited data

Results flagged for a closer look

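In groups of 4 libraries, a library was marked where its gap to the nearest other, over the range of the group, passed Dixon's 95% critical value. Of 156 groups examined (39 named genes in 4 groups), 15 were marked, and chance marks about 1 in 20. Among sedentary libraries, Atf3 was at 1.89 TPM in p16 KO CTL 7, against 1.10 to 1.22 TPM in the others of its group, which is still under the lowest running library. Acvr1 was at 49.3 TPM in p16 KO CTL 5, against 40.4 to 41.7 TPM. In p16 KO CTL 8, Trib2 was at 21.2 TPM (others 23.6 to 24.0), Stmn1 at 326 TPM (others 358 to 364) and Neurod2 at 191 TPM (others 204 to 205). In p16 WT CTL 2, Capn5 was at 59.3 TPM (others 63.7 to 64.4), Psme1 at 96.0 TPM (others 84.1 to 86.1) and Cdkn2a at 0.586 TPM (others 0 to 0.0843). Sncb was at 761 TPM in p16 KO CTL 5 (others 698 to 707), Agmat at 0.539 TPM in p16 WT CTL 3 (others 0.0941 to 0.147) and Prlr at 0.876 TPM in p16 WT CTL 4 (others 0.689 to 0.720).

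Among running libraries, p16 WT RUN 10 stood out for Bdnf, at 70.4 TPM against 60.4 to 61.3 TPM, and for Cdkn1a, at 18 TPM against 11.0 to 11.9 TPM. Fosl2 was at 39.2 TPM in p16 KO RUN 13, against 43.9 to 44.5 TPM, and Cdkn2a was at 0.413 TPM there and listed at 0 in the others of its group.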

How the results depend on the processing

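The direction of the running difference of all 138 genes was the same in the 12 alternative settings that tested them (135 of 138 were tested at a mean of at least 1 TPM), in the 16 fits without 1 library, and without the 3 libraries that stand apart, a choice made after seeing the data. A kept direction was close to fixed in advance, since the genes were chosen for this difference and the fits share most or all libraries. Dropping the variance trend or adding the interaction term leaves the differences themselves unchanged. The adjusted calls were less stable. The count of 138 shared genes became 74 without a variance trend, 90 with the nuclear RNA score as a covariate (75 of the 138 among them), 0 with log2 coverage as a covariate and 0 without the 3 libraries, and it was 114 to 191 in the other settings. With TPM as deposited it was 174, with 153 higher and 21 lower, a split of 87.9% higher in place of 76.8%. Without 1 library it ranged from 37 to 244. It was 70 without p16 WT CTL 1, 62 without 2 and 244 without 3, 58, 72 and 81 without p16 KO CTL 6, 7 and 8, 55 and 75 without p16 WT RUN 10 and 12, and 80, 37, 66 and 72 without p16 KO RUN 13, 14, 15 and 16. Of the genes of the lists, 15 were called, with 23 for TPM as deposited, 9 without a variance trend, 0 with coverage as a covariate, 0 without the 3 libraries and 7 to 21 without 1 library (9 without p16 KO CTL 6, p16 KO CTL 8 or p16 WT RUN 10, and 7 without p16 KO RUN 14). Genes at an unadjusted p under 0.05 in p16 KO, 3196, became 1295 with coverage as a covariate, 1470 without the 3 libraries and 2023 to 4738 without 1 library (2063 and 2023 without p16 KO CTL 6 and 7). Those in p16 WT, 833, ranged from 531, without p16 WT RUN 10, to 1018 without 1 library. The interaction count of 949 became 3135 with coverage as a covariate and 619 to 2381 without 1 library (2381 without p16 WT CTL 2, 619 without p16 WT CTL 3 and 1975 without p16 KO CTL 5). The cause of these changes was not tested. Depth limits the genes under 1 TPM, such as Ly6g6e and Agmat in sedentary libraries. No paired analysis was possible because the groups have no replicate number in common.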

Other observations

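Further families were drawn up after the values were seen, so their counts are descriptions, to be set against 0.612% of all genes called higher. Of 27 sulfotransferases and related enzymes of heparan, chondroitin and keratan sulfate, 4 rose (Hs3st1, Hs6st1, Chst1 and Dsel), 0 fell and 3 were lower at an unadjusted p under 0.05. Of 11 genes of reelin signalling and related sorting receptors, 3 rose (Lrp8, a reelin receptor, Sorl1, a sorting receptor, and Furin, a protease that matures secreted precursors) and 10 had a positive difference. Of 29 genes best known from striated muscle, 6 rose (Srl, Klhl40, Asb11, Mylk3, Mapk12 and Tnnt2), 0 fell and 2 were lower at an unadjusted p under 0.05. Of 13 genes that SMAD signalling is known to induce as feedback, 3 rose (Pmepa1, Skil and Fst), and of 12 genes of opioid and other inhibitory G-protein signalling, 4 rose (Penk, Oprd1, Grm2 and Kcnj6).

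The counts at an unadjusted p under 0.05 in the other lists stand against 17.5% of all genes tested. Bdnf was the only called gene of 16 neurotrophins and receptors, with 6 higher and 1 lower by that unadjusted threshold. Dnajb5 was the only called one of 23 genes of protein folding and heat shock, with 2 higher and 1 lower by it. In limma 0 genes were called among 18 angiogenic factors (7 at an unadjusted p under 0.05), 30 oxidative phosphorylation subunits (3), 22 genes of glycolysis and lactate transport (5) and 31 proteasome subunits (3). The same held for 15 GABA receptor subunits (3), 20 voltage-gated potassium channels (4), 18 cholesterol biosynthesis genes (0) and 17 circadian clock genes (7). It also held for 23 Wnt signalling genes (3), 18 genes of interferon response and MHC class I (5) and 12 insulin-like growth factor genes (4).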
